A study of Rattus norvegicus with 36 samples.

Results

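Aminoacyl-tRNA synthetases are the enzymes that join each amino acid to its transfer RNA. The 35 genes looked for were 19 of the cytosol and 16 of the mitochondrion, matched to the array by current or older gene symbol, with the probe set of highest mean log2 intensity over all arrays taken for each gene. Of these 35, 32 were measured here (19 cytosolic and 13 mitochondrial), among 14217 genes with a named probe set. Lars2, Mars2 and Pars2 were not analysed here.

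Charging of transfer RNA is the first step of protein synthesis, and mammalian cells run it with separate nuclear-encoded enzymes for the cytosol and the mitochondrion. Gars1 and Kars1 are known to serve both compartments, and several cytosolic enzymes sit together in a multi-synthetase complex. Uncharged transfer RNA activates the kinase GCN2, which phosphorylates eIF2α and so favours translation of the transcription factor ATF4. ATF4 and its partners are known to bind C/EBP-ATF response elements near genes for amino acid synthesis, amino acid transport and cytosolic synthetases. This is background and was not measured as a mechanism here.

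The cells were granulosa cells, which line the ovarian follicle and make estradiol, taken by needle puncture from immature Sprague-Dawley rats aged 21 to 27 days. After 24 h on plates with 5% serum, all of them were kept for 48 h without serum but with androstenedione, which aromatase converts to estradiol (0.1 µM in the design text; the sample notes print the unit differently). HPTE, an estrogenic metabolite of the pesticide methoxychlor, was present at 0, 1, 5 or 10 µM. Cells at every dose were left unstimulated (basal) or received FSH (3 ng/ml) or cAMP (1 mM), and each of the 12 groups had 3 arrays, 36 in all. FSH acts on granulosa cells through a receptor that raises cAMP. The sources used here name neither the vehicle of HPTE nor the form of cAMP. Nothing in the labels tells separate animals from parallel wells, so every p-value describes the scatter of these samples, some of which can be technical. In such bulk samples, fewer cells of a type and less RNA per cell cannot be told apart.

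A few facts of the arrays bear on what follows. By Cyp19a1 (aromatase) and Lhcgr (the LH receptor), number 2 of the FSH and cAMP groups without HPTE goes against its label. Cyp19a1 stood at a log2 intensity of 11.49, 7.48 and 11.46 in the arrays labelled FSH and at 7.62, 11.01 and 6.46 in those labelled cAMP. Lhcgr showed the same pattern. Number 2 was also the lowest FSH array for both genes at 1 and 5 µM HPTE. Cyp19a1 was at 11.37, 9.03 and 11.23 with FSH and 1 µM, and at 9.03, 5.08 and 8.26 with FSH and 5 µM. The cause was not tested. Results that rest on number 2 of the FSH or cAMP group without HPTE are therefore given with and without both arrays. The 12 arrays of number 3 also stood apart. Their log2 ratio of 3′ to 5′ Gapdh signal, a measure of RNA or amplification length, was 0.767 to 1.07, against 1.61 to 2.4 in the other arrays. In 1 of them, number 3 of the cAMP group without HPTE, the upper quartile of intensity was 206. It was 228 to 269 in the other 35 arrays. Samples of equal number deviated together, so a fit with the replicate number as a block is given as well where it moved a count of the main comparisons. Of 7 granulosa markers, 5 had a mean level between the 89.5 and 99.9 percentiles of the probe sets (Inhba, an inhibin subunit, lay between 12.66 and 13.7 on the log2 scale), and Amh and Cyp19a1 stood at the 67 and 63.3 percentiles. Some markers of other cell types were also well above the lowest levels: Col1a1 of stroma reached 10.43, Kdr of endothelium 9.72, Zp2 and Zp3 of oocytes 8.9 and 8.47, and Cd68 and Cd14 of leukocytes 8.77 and 8.56. Csf1r, Bmp15 and Msln, markers of macrophages, oocytes and surface epithelium, never passed 5.67.

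All 32 genes were above the first quartile of mean level over the probe sets. Mean log2 levels over the arrays ran from 7.373 to 10.268 for the cytosolic genes and from 5.326 to 8.096 for the mitochondrial ones. Over the 12 groups the cytosolic genes had a common order: 17 of 19 (89.5%) had their highest group mean in a group with 10 µM HPTE, and 15 of 19 (78.9%) had their lowest in the FSH or cAMP group without HPTE. Over all 31042 probe sets these shares were 29.8% and 15.2%. The mitochondrial genes were spread otherwise, with 3 of 13 (23.1%) highest at 10 µM HPTE and 6 of 13 (46.2%) highest in the FSH group without HPTE, where 1 of 19 cytosolic genes, Farsa, was highest. The other exception to the highest group was Qars1, the glutamine enzyme, highest with cAMP and 5 µM HPTE. Those to the lowest were Aars1 (cAMP and 1 µM), Cars1 (cAMP and 5 µM), and Qars1 and Farsa, the α subunit of the phenylalanine enzyme (FSH and 5 µM).

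**Figure D1:**
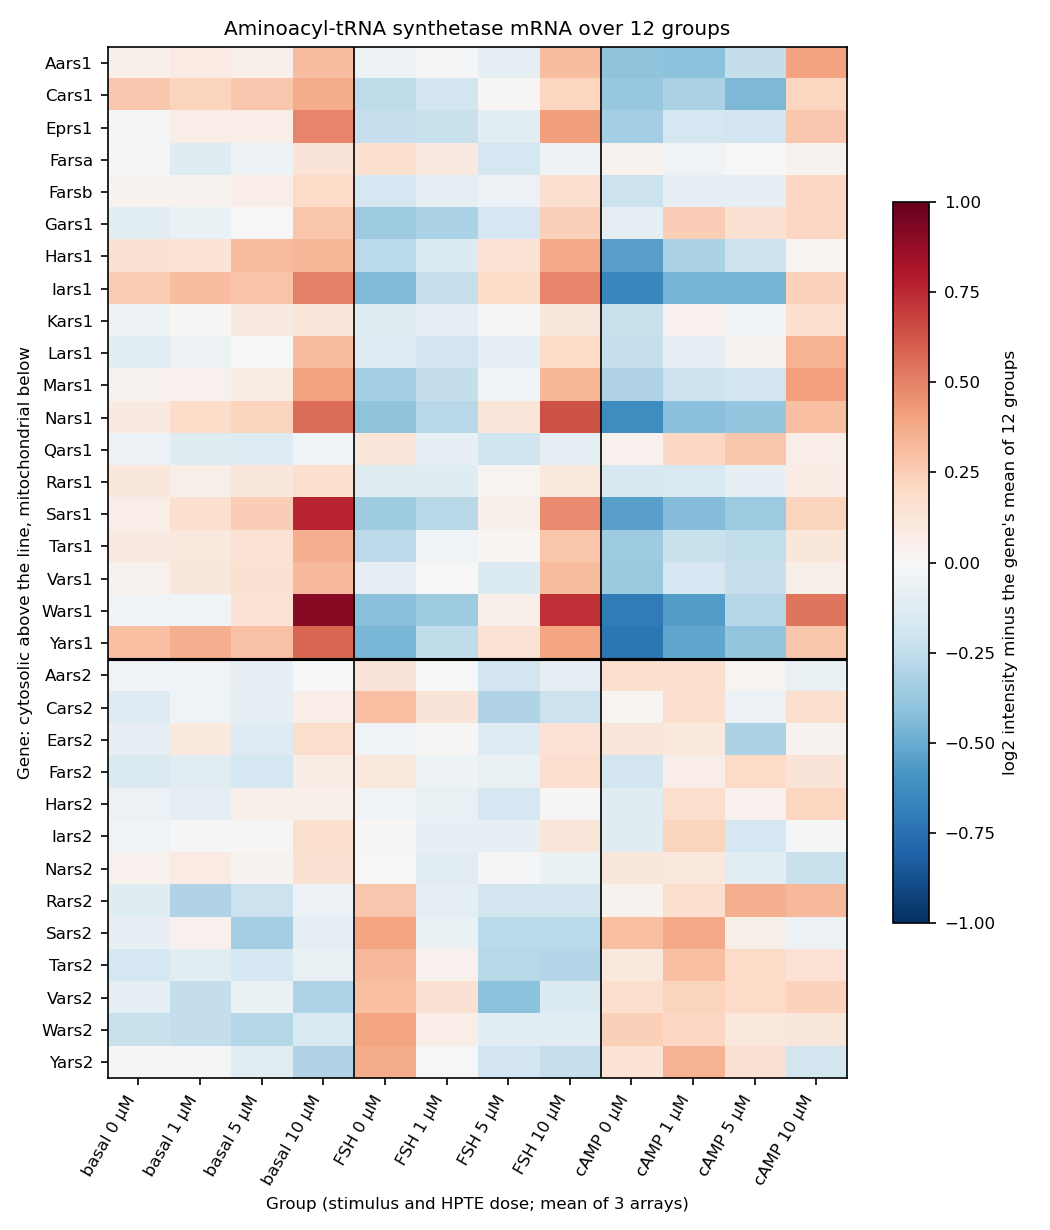
Heat map of the group mean log2 intensity of each gene (rows) in each of the 12 groups (columns, mean of 3 arrays), drawn as the difference from that gene's mean over the groups; red is above and blue below. The cytosolic rows are reddest at 10 µM HPTE and bluest with FSH or cAMP alone, where 15 of 19 have their lowest mean, while 6 of 13 mitochondrial rows are highest with FSH alone.

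Because the cytosolic genes share this order, their start regions were read. RefSeq's promoter table (build GRCr8; 250 bases before to 50 after the start of each gene) held windows for 17 cytosolic genes and for all 16 mitochondrial ones (18 windows); it held none for Gars1 and Rars1. The core of the C/EBP-ATF response element was searched as TGATGNAA on both strands, where N is any base. It was found in 7 of 17 cytosolic windows (41.2%: Aars1, Cars1, Iars1, Mars1, Nars1, Tars1 and Yars1), in 0 of 18 mitochondrial windows and in 3.98% of all 33469 windows. The cAMP response element TGACGTCA was in none of the cytosolic or mitochondrial windows and in 1.83% of all. The E-box CACGTG was in 5 cytosolic windows (29.4%: Aars1, Farsb, Iars1, Tars1 and Vars1), in that of Ears2 (5.56%) and in 6.42% of all. No match to 1 motif overlapped a match to another in the synthetase windows. A match is a description of letters, and binding was not measured. The 30 bases around a match are shown for 5 genes, with the 8 matched bases in capitals, 5′ to 3′ on the strand of the gene.
Cars1 (cysteine enzyme), chr1:208225334-208225363, minus strand: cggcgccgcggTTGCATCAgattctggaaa
Iars1 (isoleucine enzyme), chr17:15193658-15193687, minus strand: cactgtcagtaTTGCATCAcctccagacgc
Mars1 (methionine enzyme), chr7:65023752-65023781, minus strand: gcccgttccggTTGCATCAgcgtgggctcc
Tars1 (threonine enzyme), chr2:62114811-62114840, minus strand: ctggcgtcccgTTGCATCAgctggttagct
Yars1 (tyrosine enzyme), chr5:146820183-146820212, plus strand: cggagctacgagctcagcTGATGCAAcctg

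The first base of the match lay 24 bases before the table's start for Iars1, 17 for Mars1, 27 for Tars1 and 14 for Nars1. It lay 18 bases after the start for Cars1 and 39 after for Yars1. For Cars1, Iars1 and Mars1 the table's start differs from that of the gene record, so their positions depend on the transcript chosen. To set a window with a match beside one without, the 160 bases before the start are shown for Tars1 and for Wars1 (the tryptophan enzyme), which had the highest fold at 10 µM HPTE.
Tars1, chr2:62114803-62114962, minus strand: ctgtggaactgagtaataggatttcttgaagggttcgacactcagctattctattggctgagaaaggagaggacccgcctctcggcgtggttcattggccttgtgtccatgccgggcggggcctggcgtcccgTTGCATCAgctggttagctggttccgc
Wars1, chr6:133571646-133571805, minus strand: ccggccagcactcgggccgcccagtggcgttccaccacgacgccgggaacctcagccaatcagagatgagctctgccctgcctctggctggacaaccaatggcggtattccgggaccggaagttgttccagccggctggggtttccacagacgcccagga

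With FSH and no HPTE, set against basal cells to ask what the hormone itself does, Yars1 mRNA fell and Tars2 mRNA, of the mitochondrial threonine enzyme, rose. Yars1 stood at log2 intensities of 9.76, 9.59 and 9.08 in basal arrays 1 to 3 and at 9.04, 8.76 and 8.35 with FSH. Every FSH array was below every basal array. The log2 difference was -0.76 (SE 0.23, a 1.69-fold fall), with an adjusted p of 0.0345 in limma (Benjamini-Hochberg over all 31042 probe sets). Tars2 stood at 8, 7.94 and 7.81 in basal arrays and at 8.21, 8.81 and 8.25 with FSH, a log2 difference of 0.51 (SE 0.15, limma adjusted p 0.0308). Here too the groups did not overlap, and number 2 with FSH, an array that goes against its label, was the highest.

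Among the 19 cytosolic genes, 1 was called lower and 0 higher, beside 4.18% and 3.88% of all probe sets. Among the 13 mitochondrial genes, 1 was called higher and 0 lower. With the replicate block, 5 cytosolic genes were called lower (Cars1, Iars1, Mars1, Sars1 and Yars1; 7.5% of all probe sets) and 2 mitochondrial genes higher (Tars2 and Wars2; 8.56%). Among the 9878 probe sets at or above the mean level of the lowest cytosolic gene, 14.8% were called lower with the block. The median log2 difference was -0.253 over the cytosolic and 0.361 over the mitochondrial genes, beside -0.00778 over all probe sets. The difference was below 0 for 17 of 19 cytosolic genes and above 0 for 12 of 13 mitochondrial genes.

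The pairs of equal number show how the block came to its calls. Iars1 stood at 7.93, 8.44 and 8.91 in basal arrays and at 7.4, 7.74 and 8.07 with FSH, and Cars1 at 8, 8.1 and 7.15 against 7.31, 7.5 and 6.87. Each FSH array was below the basal array of its own number, although the groups overlapped because number 3 was high for Iars1 and low for Cars1. In all, 12 of 19 cytosolic genes were lower in all 3 pairs, beside 26.4% of the 9878 probe sets of like level. Wars2, the mitochondrial tryptophan enzyme, stood at 6.96, 7.03 and 6.55 in basal arrays and at 7.83, 7.31 and 7.26 with FSH. Its groups did not overlap, and its log2 difference was 0.62 (SE 0.25, limma adjusted p 0.171, and 0.0013 with the block).

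The call of Yars1 was lost without basal number 1 (limma adjusted p 0.209), basal number 2 (0.129), FSH number 2 (0.0675) or FSH number 3 (0.249), and that of Tars2 without basal number 1 (0.0532), 2 (0.0732) or 3 (0.133) or FSH number 2 (0.293). Without number 2 of both stimulated groups, 2 cytosolic genes (Gars1 and Yars1) and 0 mitochondrial genes were called, and with the block as well, 5 cytosolic genes (Cars1, Gars1, Iars1, Mars1 and Yars1) and Wars2.

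With cAMP and no HPTE, set against basal cells, Yars1 again fell. It fell 2.04-fold, from 9.76, 9.59 and 9.08 in basal arrays to 8.48, 8.98 and 7.87 (log2 difference -1.03, SE 0.23, limma adjusted p 0.00326). All 3 cAMP arrays were below the lowest basal array. This call held with each of the 6 arrays left out in turn (highest adjusted p 0.0485). The median log2 difference was -0.414 over the 19 cytosolic genes and 0.16 over the 13 mitochondrial genes, beside 0.0394 over all probe sets. Under quantile normalization the cytosolic median was -0.33 and the mitochondrial median 0.21.

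In all, 1 cytosolic gene was called lower and 0 higher (4.49% and 2.69% of all probe sets), and 0 mitochondrial genes were called; 7 cytosolic and 0 mitochondrial genes had an unadjusted p under 0.05 in limma. With the replicate block, 8 cytosolic genes were called lower (Cars1, Hars1, Iars1, Nars1, Sars1, Tars1, Wars1 and Yars1; 8.73% of all probe sets, 17.8% of those of like level) and Wars2 higher (6.44%). Nars1, the asparagine enzyme, stood at 8.44, 8.46 and 9.4 in basal arrays and at 7.91, 8.11 and 8.16 with cAMP. Hars1, the histidine enzyme, stood at 8.51, 8.67 and 9.37 against 7.89, 8.17 and 8.43. Iars1 stood at 7.93, 8.44 and 8.91 against 7.29, 7.68 and 7.58. For all 3 genes every cAMP array was below every basal array, and for Nars1 and Hars1 number 3 was the highest of its group. The difference was below 0 for 16 of 19 cytosolic genes. Over the list, 14 of 19 were lower in all 3 pairs, beside 28.6% of the probe sets of like level. Without number 2 of both stimulated groups, 3 cytosolic genes were called (Aars1, Wars1 and Yars1), and 11 with the block as well. Leaving out cAMP number 2 alone gave the calls of Aars1 (log2 difference -0.76, limma adjusted p 0.0112) and Wars1 (-1.02, 0.00323), and leaving out basal number 3 that of Cars1 (-0.95, 0.0328).

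Markers of another cell type moved with both stimuli. Over the 5 markers of macrophages and leukocytes, the summed intensity was 456 to 853 in basal cells, 276 to 463 with FSH and 262 to 379 with cAMP, and 1 of 5, Cd14, fell with either (log2 differences -1.51 and -1.43). With the block Cd68 was lower with cAMP too. The stroma sum was 1520 to 2580 in basal cells, 966 to 1590 with FSH and 701 to 2230 with cAMP, with 0 of 4 called by limma and, with the block, 1 lower with FSH (Col1a2, -1.32, adjusted p 0.0242, against 0.0866 without) and 2 with cAMP (Col1a1 and Col1a2). Of 7 granulosa markers 6 rose with either stimulus, and of 3 theca markers 2 rose with FSH and 1 with cAMP, their sums going from 410 to 552 in basal cells to 1650 to 4750 and 921 to 2420. Star was the highest theca marker, at mean log2 levels of 8.18 in basal cells, 11.11 with FSH and 10.47 with cAMP. Cyp17a1 stood at 4.8, 6.09 and 5.35 and Insl3 at 7.11, 6.94 and 7.15, so the theca sum mainly followed Star. The part of these markers in the synthetase differences was not tested. FSH and cAMP arrays without HPTE differed in no synthetase (0 of 32 called, 0 of 32 with an unadjusted p under 0.05 in limma, and 0% of all probe sets called), but number 2 of both groups stood against its label.

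At 10 µM HPTE in basal cells, which asks what HPTE does without a stimulus, Wars1 mRNA rose. Wars1 stood at log2 intensities of 8.66, 8.78 and 8.23 without HPTE and at 9.47, 9.44 and 9.6 with it. The groups did not overlap, and the log2 difference of 0.94 (SE 0.24, 1.92-fold) had a limma adjusted p of 0.0448. The call was lost with any 1 of the 6 arrays left out: limma adjusted p values were 0.102, 0.0749 and 0.298 without number 1, 2 or 3 at 0 µM, and 0.136, 0.113 and 0.165 without number 1, 2 or 3 at 10 µM. All 19 cytosolic differences were above 0, with a median of 0.271 beside 0.0202 over all probe sets, and 10 of 13 mitochondrial ones were, with a median of 0.105.

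This was 1 cytosolic gene called higher and 0 lower (0.416% and 0.602% of all probe sets), and 0 mitochondrial genes called; 4 cytosolic and 0 mitochondrial genes had an unadjusted p under 0.05. With the block, Sars1 was called too (1.61% of all probe sets were then called higher, 1.8% lower, and 3.35% of those of like level higher). Sars1, the serine enzyme, stood at 9.86, 9.72 and 8.94 without HPTE and at 10.59, 10.28 and 9.76 with it. It was higher in each pair of equal number, by 0.73, 0.56 and 0.82, while the groups overlapped through the low number 3. Eprs1, the joint enzyme for glutamate and proline, stood at 10.16, 10.17 and 9.7 against 10.53, 10.69 and 10.33, with no overlap, and missed the threshold (log2 difference 0.51, limma adjusted p 0.644, and 0.0893 with the block). In all, 13 of 19 were higher in all 3 pairs, beside 28.8% of the probe sets of like level. Lars1 stood at 9.24, 9.28 and 8.71 against 9.52, 9.63 and 9.33, and Gars1 at 10.1, 10.07 and 10 against 10.51, 10.36 and 10.46, both without overlap and both uncalled (log2 differences 0.42 and 0.39). In this comparison 1 of 3 theca markers, Star, rose, the list's sum going from 410 to 552 to 1470 to 2350, and the leukocyte sum was 472 to 656 with 0 of 5 called. Of 4 stroma markers 1, Col1a1, fell without overlap (-1.57, limma adjusted p 0.0307), the list's sum going from 1520 to 2580 to 672 to 1570. With the block 1 of 7 granulosa markers, Foxl2, was lower (-0.37). Their part was not tested.

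In FSH cells 10 µM HPTE raised Wars1, Yars1 and Gars1 mRNA and lowered Tars2. Wars1 stood at 8.13, 8.33 and 8.03 with FSH alone and at 9.19, 9.18 and 9.58 with 10 µM HPTE. Yars1 stood at 9.04, 8.76 and 8.35 against 9.55, 9.55 and 9.63. For both, every array with HPTE was above every array without it; Wars1 differed by 1.15 on the log2 scale (SE 0.24, 2.22-fold, limma adjusted p 0.00138) and Yars1 by 0.86 (SE 0.23, 1.81-fold, 0.0144).

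Gars1, the glycine enzyme, stood at 9.45, 10.33 and 9.63 with FSH alone and at 10.06, 10.34 and 10.8 with HPTE (log2 difference 0.60, SE 0.18, limma adjusted p 0.0354). Its groups overlapped through number 2 with FSH alone, the array that goes against its label. Tars2 stood at 8.21, 8.81 and 8.25 against 7.9, 7.68 and 7.8, with no overlap, and fell by 0.63 on the log2 scale (SE 0.15, limma adjusted p 0.00585).

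The count was 3 of 19 cytosolic genes higher and 0 lower, beside 4.51% and 3.95% of all probe sets, and 0 of 13 mitochondrial genes higher and 1 lower. With the block, 12 cytosolic genes were higher and 0 lower (Cars1, Eprs1, Farsb, Gars1, Hars1, Iars1, Mars1, Nars1, Sars1, Tars1, Wars1 and Yars1), beside 8.47% of all probe sets and 17% of those of like level. Of the mitochondrial genes, 3 of 13 (Cars2, Tars2 and Wars2) were lower with the block, beside 8.71%. The median log2 difference was 0.537 over the cytosolic and -0.441 over the mitochondrial genes, beside -0.00866 over all probe sets. In all, 13 of 19 cytosolic genes were higher in all 3 pairs, beside 27.2% of the probe sets of like level. Of the mitochondrial genes 6 of 13 were lower in all 3, a count given without a share of probe sets beside it.

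Nars1 and Iars1 show the size of the paired differences. Nars1 stood at 8.09, 7.88 and 8.87 with FSH alone and at 8.63, 9.08 and 10.23 with HPTE, a log2 difference of 1.04 (SE 0.45, limma adjusted p 0.202, and 4.77e-05 with the block). Iars1 stood at 7.4, 7.74 and 8.07 against 8.32, 8.51 and 9.15, a log2 difference of 0.93 (SE 0.37, limma adjusted p 0.14, and 0.000159 with the block). Number 3 was the highest of each group for both genes, and the groups overlapped for Nars1 but not for Iars1. Sars1 was at 9.47, 9.19 and 8.6 without HPTE and at 9.9, 9.97 and 9.88 with it, and Mars1 at 9.59, 9.91 and 10.31 against 10.11, 10.55 and 11.15. Both were higher with HPTE in every pair.

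Farsa and Qars1 ran the other way, each with a log2 difference of -0.21 (limma adjusted p 0.719 and 0.788). Farsb, which encodes the other subunit of the phenylalanine enzyme, differed by 0.33 (0.162, and 0.0498 with the block). The call of Yars1 was lost without number 3 at 0 µM (limma adjusted p 0.126) or at 10 µM (0.0576). That of Gars1 was lost without number 1 (0.249) or 3 (0.174) at 0 µM or number 2 (0.0732) or 3 (0.308) at 10 µM, and that of Tars2 without number 2 at 0 µM (0.077). Leaving out number 2 at 0 µM gave the call of Farsb (0.0493), and number 1 at 0 µM that of Cars2 (0.0376). Wars1 kept its call in all 6 (highest 0.0154). Without number 2 of both stimulated groups, 5 cytosolic (Eprs1, Farsb, Gars1, Wars1 and Yars1) and 0 mitochondrial genes were called, and with the block as well 12 and 3.

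The leukocyte markers summed to 276 to 463 with FSH alone and to 507 to 864 with 10 µM HPTE, and 1 of 5, Cd14, rose (log2 difference 1.43). Of 7 granulosa markers 5 fell in this comparison, and their summed intensity went from 26500 to 38700 with FSH alone to 13700 to 18700. Of 3 theca markers 1 fell, with sums of 1650 to 4750 and 1590 to 2540. With the block 6 granulosa markers were lower, as was Tek of endothelium (-1.22), and Gdf9 of oocytes was higher (0.72). The part of these lists in the synthetase differences was not tested.

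In cAMP cells 10 µM HPTE raised Wars1, Yars1 and Aars1, the alanine enzyme. Wars1 stood at 7.9, 8.59 and 7.18 with cAMP alone and at 9.23, 8.79 and 9.35 with HPTE, 2.35-fold higher (log2 difference 1.23, SE 0.24, limma adjusted p 0.00285). Yars1 stood at 8.48, 8.98 and 7.87 against 9.53, 9.39 and 9.41 (log2 difference 1.00, SE 0.23, limma adjusted p 0.0152), and Aars1 at 8.69, 9.48 and 8.46 against 9.59, 9.47 and 9.99 (0.81, SE 0.20, 0.0317). For Wars1 and Yars1 the groups did not overlap. For all 3 genes number 2 with cAMP alone, the array against its label, was the highest of its group, and for Aars1 it stood level with its partner.

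Here 3 of 19 cytosolic genes were called higher and 0 lower, beside 1.2% and 0.486% of all probe sets. With the block, 12 were called higher (Aars1, Cars1, Eprs1, Farsb, Hars1, Iars1, Lars1, Mars1, Nars1, Sars1, Wars1 and Yars1), beside 3.89% of all probe sets and 8.49% of those of like level; 1.95% of all probe sets were called lower. Of 13 mitochondrial genes 0 were called in either fit, and 2 had an unadjusted p under 0.05 in limma (Hars2 above 0 and Nars2 below). The cytosolic median was 0.572 and the mitochondrial median 0.0467, beside -0.0244 over all probe sets. All 3 pairs were higher for 15 of 19 cytosolic genes, beside 21.1% of the probe sets of like level.

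Pairs differed in size. The mean over the 19 cytosolic genes was higher with HPTE by 0.62, 0.18 and 0.92 on the log2 scale in pairs 1, 2 and 3, and pair 2 holds the cAMP array that goes against its label. Pair 3 holds the cAMP array of low upper quartile (206, against 228 to 269 in the others). Under quantile normalization the median difference was 0.49 over the cytosolic and -0.05 over the mitochondrial genes, in place of 0.57 and 0.05. Nars1 stood at 7.91, 8.11 and 8.16 with cAMP alone and at 8.53, 8.66 and 9.76 with HPTE. Lars1, the leucine enzyme, stood at 9.14, 9.46 and 8.27 against 9.71, 9.61 and 9.26. Iars1 stood at 7.29, 7.68 and 7.58 against 8.18, 8.11 and 8.93. The 10 µM arrays of Nars1 and Iars1 were all above those without HPTE, while Lars1 overlapped, and Sars1, at 9.2, 9.34 and 8.15 against 10.05, 9.61 and 9.36, did not.

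Wars1 kept its call in all 6 fits that leave out 1 array (highest limma adjusted p 0.0396). With numbers 1 and 2 alone, with or without the block, Wars1 was not called and Yars1 was the 1 synthetase called. Among the fits without 1 array, Yars1 lost its call without number 1 (limma adjusted p 0.0517) or 3 (0.157) at 0 µM, or number 1 (0.0703) or 3 (0.0592) at 10 µM. Aars1 lost it without the same arrays (0.169, 0.241, 0.0664 and 0.256), and without number 2 at 0 µM Eprs1 gained one (0.0264). With number 2 of both stimulated groups left out, 4 cytosolic genes were called (Aars1, Eprs1, Wars1 and Yars1), and with the block as well 14, together with Hars2 and Rars2, both higher. The leukocyte markers summed to 262 to 379 with cAMP alone and to 354 to 530 with 10 µM HPTE, with 0 of 5 called, and Cd14 was called higher with the block (log2 difference 0.93, limma adjusted p 0.0556, and 0.00593 with the block). The theca markers summed to 921 to 2420 and to 4290 to 6370. Star was higher in all 3 pairs, by 1.46, 1.49 and 2.59, without overlap, and was called with the block alone (log2 difference 1.85, limma adjusted p 0.0929, and 0.000143 with the block). Of 4 stroma markers 1, Col1a1, fell (-1.93, limma adjusted p 0.00292) without overlap, the list's sum going from 701 to 2230 to 638 to 745. Of 7 granulosa markers 0 were called by limma, and 1, Nr5a2, was lower with the block (-0.99). The part of these lists was not tested.

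**Figure D2:**
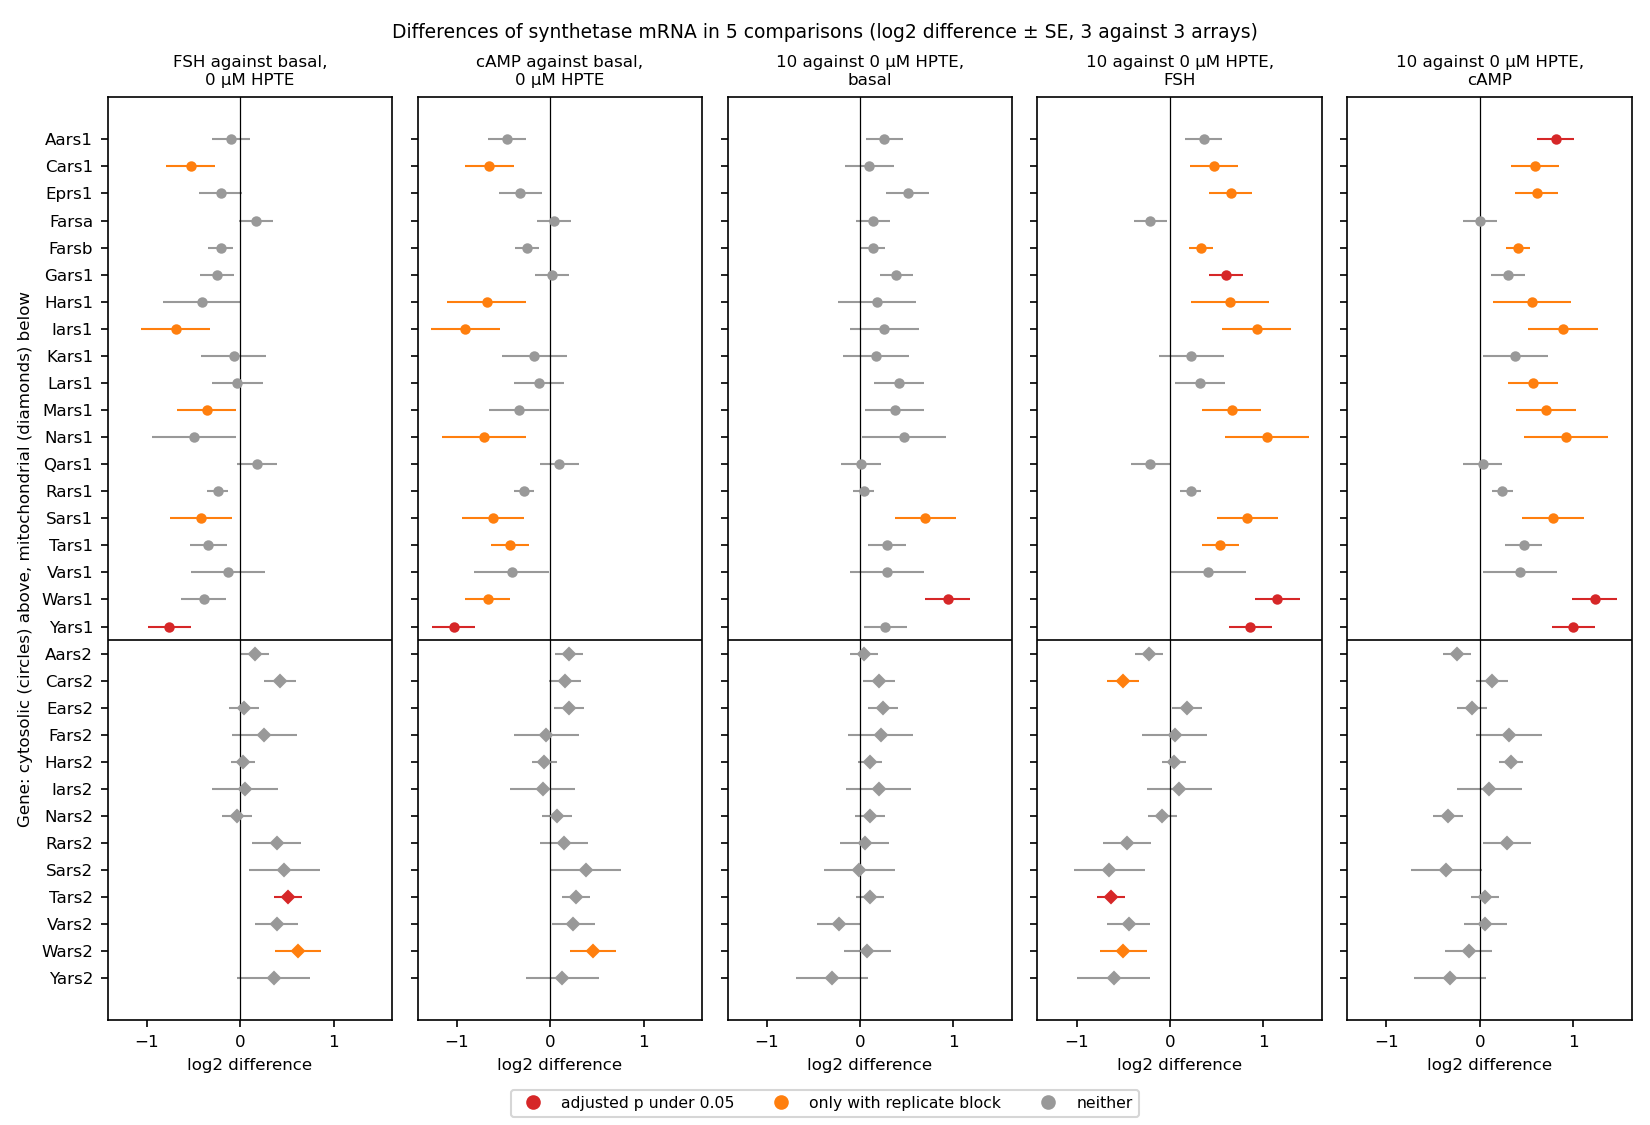
Log2 difference with its SE (horizontal bars) for each gene in the 5 main comparisons, 3 arrays against 3; circles are cytosolic and diamonds mitochondrial genes. Red marks an adjusted p under 0.05 and orange one reached only with the replicate block. Most cytosolic points lie left of 0 with FSH or cAMP (17 and 16 of 19) and right of 0 with 10 µM HPTE (19, 17 and 19 of 19), while the mitochondrial median is 0.361 with FSH and -0.441 for HPTE in FSH cells.

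At the lower doses fewer synthetases were called, which is a count and no test between doses. At 1 µM HPTE 0 of 32 genes were called in basal, FSH or cAMP cells (0%, 0.00644% and 0% of all probe sets), and 0, 0 and 1 had an unadjusted p under 0.05 in limma. At 5 µM, 0 of 32 were called in basal and 0 of 32 in cAMP cells (0.0129% and 0.00322%), with 0 and 1 under an unadjusted p of 0.05. In FSH cells at 5 µM, Cars2, the mitochondrial cysteine enzyme, and Tars2 fell, by 0.60 each on the log2 scale (SE 0.17 and 0.15, limma adjusted p 0.0286 and 0.0105), beside 3.08% of all probe sets.

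Cars2 stood at 5.57, 5.76 and 6.13 with FSH alone and at 4.92, 5.34 and 5.39 with 5 µM HPTE, and Tars2 at 8.21, 8.81 and 8.25 against 7.66, 8 and 7.8. Neither overlapped. All 13 mitochondrial differences were below 0 in this comparison (median -0.459), and 15 of 19 cytosolic ones above it (median 0.194), beside a median of -0.0368 over all probe sets. With the block, 4 mitochondrial genes were called lower (Cars2, Tars2, Vars2 and Wars2; 7.86%) and 3 cytosolic genes higher (Iars1, Nars1 and Yars1; 6.4%). The call of Cars2 was lost without number 1 at 5 µM (limma adjusted p 0.214) or number 3 at 0 µM (0.236), and that of Tars2 without number 1 at 5 µM (0.0708) or number 2 at 0 µM (0.118). With number 2 of both stimulated groups left out, Cars2 was the 1 synthetase called, and under quantile normalization its call was missed (limma adjusted p 0.066).

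**Figure D3:**
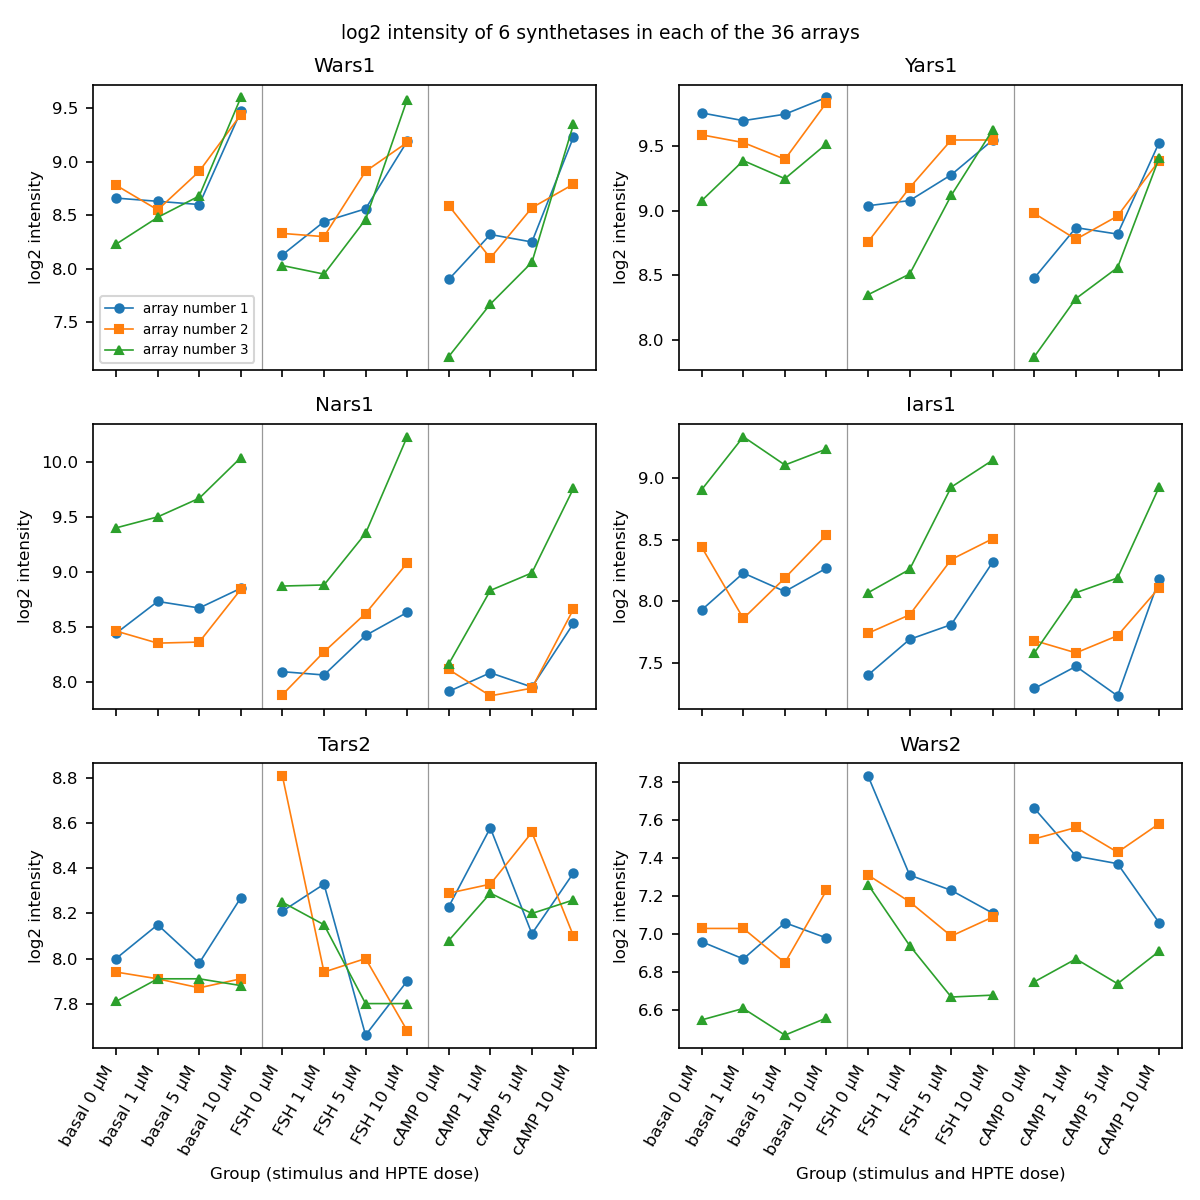
Log2 intensity of 6 genes (vertical axis) in each array, by stimulus and HPTE dose (horizontal axis); lines join arrays of equal number. Wars1, Yars1, Nars1 and Iars1 are higher at 10 µM than at 0 µM in all 3 numbers of each stimulus, Nars1 and Iars1 are set apart in number 3, and Tars2 is highest in number 2 with FSH alone, at 8.81.

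The stimuli were also compared at equal HPTE doses, since HPTE was present on both sides there. With FSH against basal cells, 0 of 32 genes were called at 1 µM, 0 at 5 µM and 0 at 10 µM. The share of all probe sets called was 0.00322% at 5 µM and 0% at 10 µM, and is not given here for 1 µM. In limma 1, 0 and 0 genes had an unadjusted p under 0.05, beside 3121, 424 and 497 of 31042 probe sets. The counts of 0 called therefore stand beside unlike backgrounds. The block gave Iars1 and Yars1 lower at 1 µM (4.35%) and no synthetase at 5 or 10 µM. The cytosolic median moved from -0.253 without HPTE to -0.251, -0.129 and -0.0622 at 1, 5 and 10 µM.

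With cAMP against basal cells Yars1 was still lower at 1 µM (log2 difference -0.88, SE 0.23, limma adjusted p 0.011; 4.47% of all probe sets called lower), a call lost without basal number 1 (0.0591) or cAMP number 3 (0.0965). The block called 6 cytosolic genes lower there (8.07%) and Tars2 and Wars2 higher (9.83%). At 5 µM 0 of 32 were called, with 4 under an unadjusted p of 0.05, beside 5392 of 31042 probe sets. The block called 6 cytosolic genes lower at 5 µM (7.87%) and Qars1, Rars2 and Wars2 higher (9.11%). At 10 µM 0 of 32 were called, with 2 under an unadjusted p of 0.05, beside 4433 of all probe sets. The block called Sars1 lower there (6.72%). The shares of all probe sets called without the block at 5 and 10 µM are not given here. Cytosolic medians were -0.278, -0.293 and -0.165 at 1, 5 and 10 µM, against -0.414 without HPTE.

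Whether the effect of 10 µM HPTE differed between stimuli was tested by interaction terms. For FSH minus basal 0 of 32 genes were called (2.17% of all probe sets), with 2 under an unadjusted p of 0.05. Tars2 came nearest, with a log2 difference of -0.73 (SE 0.21, limma adjusted p 0.0681). With the block it was called (0.023; 2.93% of all probe sets were called lower), but not with number 2 of both stimulated groups left out, when the difference was -0.54 (limma adjusted p 0.199, and 0.0889 with the block). For cAMP minus basal 0 of 32 were called (0.129%), with 1 under an unadjusted p of 0.05, and for FSH minus cAMP 0 of 32 (1.88%), with 3. The larger fold of Wars1 in FSH and cAMP cells than in basal cells was not called different: the interaction was 0.21 (SE 0.33) for FSH minus basal and 0.29 (SE 0.33) for cAMP minus basal, both with a limma adjusted p of 1. The comparisons above share arrays (FSH alone and cAMP alone serve as one side of both the stimulus and the HPTE comparisons), so opposite signs between them are partly built in.

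Mean levels over each list put the same picture by array. The mean of the centred log2 values of the 19 cytosolic genes was 0.06 ± 0.09 (SD, n = 3) in basal cells, -0.22 ± 0.1 with FSH and -0.36 ± 0.24 with cAMP. At 10 µM HPTE it was 0.37 ± 0.08, 0.30 ± 0.2 and 0.22 ± 0.13 in basal, FSH and cAMP cells. The 3 group means thus lay between 0.22 and 0.37 at 10 µM and between -0.36 and 0.06 without HPTE, with no test of that spread. Number 3 with cAMP alone, the array of low upper quartile, stood at -0.58, and numbers 1 and 2 at -0.38 and -0.11. After quantile normalization the cytosolic means without HPTE were 0.06 in basal cells, -0.25 with FSH and -0.29 with cAMP. The mean of the 13 mitochondrial genes was -0.09 ± 0.07, 0.20 ± 0.17 and 0.08 ± 0.23 without HPTE, and -0.02 ± 0.21, -0.09 ± 0.12 and 0.06 ± 0.11 at 10 µM.

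**Figure D4:**
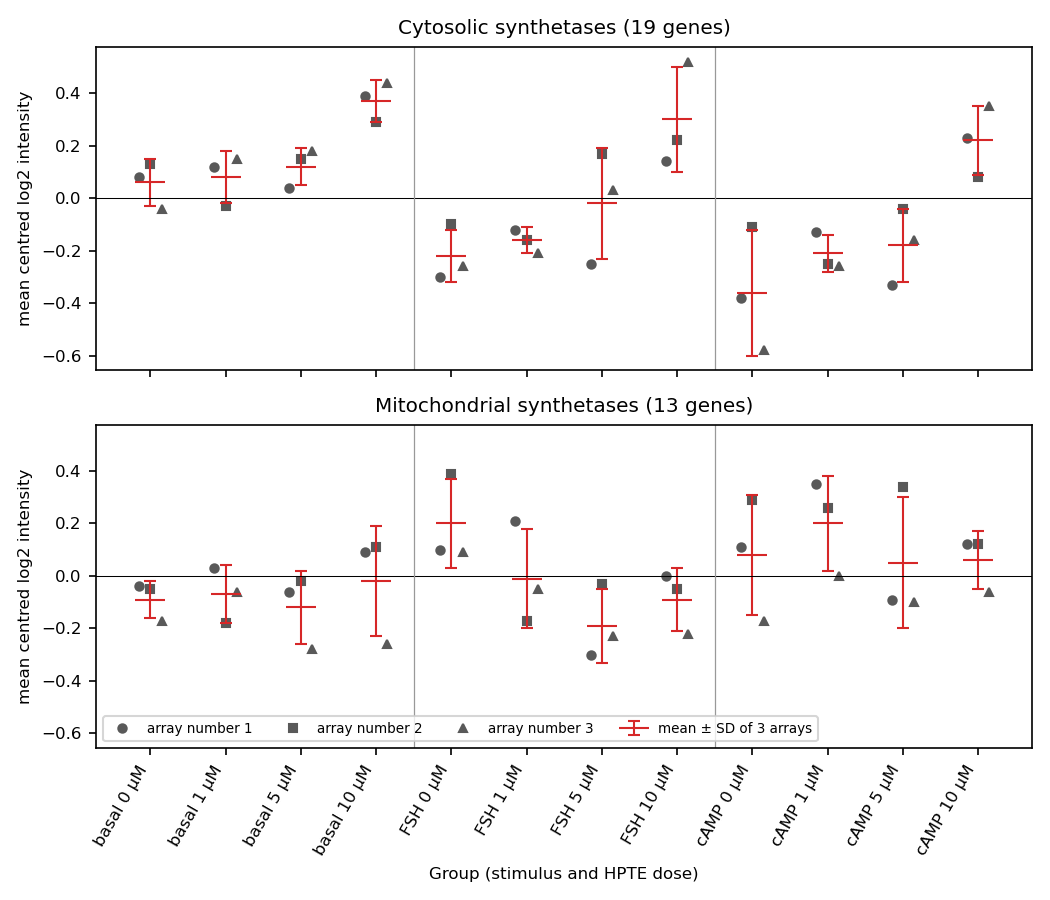
Mean centred log2 intensity over 19 cytosolic (upper) and 13 mitochondrial genes (lower) in each array (grey marks, by number) with the mean and SD of 3 arrays (red), over the 12 groups on the horizontal axis. The cytosolic mean is lowest with cAMP alone (-0.36) and highest in basal cells with 10 µM HPTE (0.37). After quantile normalization these are -0.29 and 0.35. Mitochondrial means lie between -0.19 and 0.20.

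For 13 amino acids both enzymes were measured, so each cytosolic gene could be set beside its mitochondrial partner by its own difference. With FSH the cytosolic difference was below the mitochondrial one for 13 of 13, and with cAMP for 12 of 13. With 10 µM HPTE it was above for 10 of 13 in basal, 12 of 13 in FSH and 11 of 13 in cAMP cells. In FSH cells the tryptophan enzymes stood furthest apart, with log2 differences of 1.15 for Wars1 and -0.50 for Wars2, followed by serine (0.83 for Sars1 and -0.65 for Sars2) and tyrosine (0.86 for Yars1 and -0.60 for Yars2). The phenylalanine enzymes were the exception there, with -0.21 for Farsa and 0.05 for Fars2. Farsa alone stood for the cytosolic phenylalanine enzyme in these counts. Its other subunit, Farsb, had 0.33 in FSH cells, above Fars2, so the exception depends on the subunit chosen. Sars2, Wars2 and Yars2 themselves missed the threshold without the block, at limma adjusted p values of 0.445, 0.316 and 0.539.

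Further mitochondrial genes of large difference missed the threshold. Sars2, the mitochondrial serine enzyme, stood at 6.82, 6.85 and 6.05 with FSH alone and at 6.31, 6.07 and 5.39 with 10 µM HPTE as well, lower in every pair. Yars2, the mitochondrial tyrosine enzyme, stood at 7.96, 8.91 and 7.93 against 8.09, 7.74 and 7.17. Its number 2 differed most, and number 1 was slightly higher with HPTE. Vars2, the mitochondrial valine enzyme, stood at 6.21, 6.71 and 6.38 with FSH alone, at 5.62, 5.9 and 5.63 with 5 µM HPTE and at 6, 5.88 and 6.09 with 10 µM. Neither HPTE group overlapped with FSH alone, and neither difference passed without the block (limma adjusted p 0.0671 and 0.369). Without number 2 of both stimulated groups, the mitochondrial median for 10 µM HPTE in FSH cells was -0.23 in place of -0.441, and for FSH against basal cells 0.11 in place of 0.361.

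In cAMP cells the mitochondrial genes of largest difference were Sars2, Nars2 and Hars2. Hars2, the mitochondrial histidine enzyme, stood at 6.91, 7.06 and 6.44 with cAMP alone and at 7.08, 7.29 and 7.04 with 10 µM HPTE, higher in every pair by 0.33 on average. Nars2, the mitochondrial asparagine enzyme, stood at 5.36, 5.2 and 5.77 against 4.93, 5.32 and 5.06, a log2 difference of -0.34. Both pairs of groups overlapped, and neither gene was called (limma adjusted p 0.31 and 0.473). In basal cells Yars2, Ears2 and Vars2 differed most, by -0.30, 0.25 and -0.23, each with a limma adjusted p of 1.

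Within the cytosolic list, genes of the multi-synthetase complex (Eprs1, Iars1, Kars1, Lars1, Mars1, Qars1 and Rars1) had median differences nearer 0 than the 12 others with FSH (-0.21 and -0.368), with cAMP (-0.279 and -0.533) and with 10 µM HPTE in FSH cells (0.319 and 0.567). In cAMP cells with HPTE both medians were 0.572. With the block, 3 of 7 and 9 of 12 were called higher with HPTE in FSH cells, and 4 of 7 and 8 of 12 in cAMP cells. By structural class, 6 of 10 class I and 6 of 9 class II genes were called higher with HPTE in FSH cells with the block. Eprs1, the joint enzyme for glutamate and proline, was counted under class I alone. The scaffold genes of the complex (Aimp1, Aimp2 and Eef1e1) had 0 of 3 called in limma in these 5 comparisons without the block, and 0 with an unadjusted p under 0.05; Aimp1 was called higher with the block in FSH cells with HPTE. These contrasts between lists were not tested.

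The genes with the C/EBP-ATF core printed above had a median log2 difference of 0.66 with 10 µM HPTE in FSH cells (0.36 to 1.04, 7 genes), and the 10 genes with a window and no match 0.37 (-0.21 to 1.15). In cAMP cells the medians were 0.81 and 0.5, and in basal cells 0.27 and 0.24. With FSH alone they were -0.49 and -0.17, and with cAMP alone -0.65 and -0.29. Wars1, without a match in its window, had the highest difference of all in each comparison of 10 against 0 µM HPTE. These values are a description, with no test.

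Other genes of the same pathway were counted whole from lists written for amino acid supply and its sensing. Of 11 genes of ATF4 and its partners and feedback, 3 rose and 0 fell with 10 µM HPTE in basal cells, 7 rose and 0 fell in FSH cells, and 6 rose and 0 fell in cAMP cells. With FSH alone 1 rose and 2 fell, and with cAMP alone 0 rose and 3 fell. Of all probe sets, 0.416%, 4.51% and 1.2% were called higher with HPTE in basal, FSH and cAMP cells. With FSH alone 3.88% were called higher and 4.18% lower, and with cAMP alone 2.69% and 4.49%. With the block, counts with HPTE were 5 higher in basal cells, 8 higher and 1 lower in FSH cells and 7 higher in cAMP cells, and those of the stimuli 1 higher and 4 lower with FSH and 1 higher and 6 lower with cAMP. The block called 1.61%, 8.47% and 3.89% of all probe sets higher with HPTE in basal, FSH and cAMP cells. It called 7.5% and 8.73% lower with FSH and cAMP alone. These shares also stand beside the lists that follow. The gene lower with HPTE in FSH cells and higher with cAMP alone was Ddit4, an inhibitor of mTORC1 signalling (-2.33 and 2.57, limma adjusted p 0.0946 and 0.0641, and 0.00407 and 0.00177 with the block). Trib3, a pseudokinase that restrains ATF4, had log2 differences of 2.34, 2.80 and 3.34 in basal, FSH and cAMP cells (limma adjusted p 0.000441, 3.43e-06 and 1.5e-06). Chac1, which breaks down glutathione, had 1.17, 1.62 and 2.31 (limma adjusted p 0.0397, 0.000273 and 1.46e-05). Ddit3, the transcription factor CHOP, had 1.52, 2.01 and 2.13, and its call was missed in basal cells (limma adjusted p 0.199, 0.00638 and 0.0151).

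Of 9 amino acid synthesis genes, 0, 4 and 7 rose with 10 µM HPTE in basal, FSH and cAMP cells, and 0 fell; 2 fell with FSH alone and 4 with cAMP alone. The block gave 2, 5 and 8 higher with HPTE, and 4 lower with FSH and 5 with cAMP. Asns, asparagine synthetase, had log2 differences of 0.94, 1.88 and 2.47 (limma adjusted p 0.211, 8.29e-05 and 1.19e-05). With FSH alone Asns fell by 1.26 and with cAMP alone by 1.81 (limma adjusted p 0.00646 and 0.000139). Of 9 amino acid transport genes, 3, 6 and 6 rose with HPTE (4, 7 and 7 higher with the block), and 4 fell with either stimulus alone. Slc7a3, a carrier of cationic amino acids, had 2.50, 3.86 and 3.34 with HPTE and fell by 1.76 and 1.89 with FSH and cAMP (all with limma adjusted p values of 0.0012 or lower). Slc6a9, a glycine carrier, had 1.08, 1.69 and 1.63 with HPTE.

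Of 8 genes for eIF2α, its kinases, the GCN2 partner Gcn1 and phosphatase subunits, 1 was called among the 3 HPTE comparisons: Eif2ak3, the kinase PERK, rose in cAMP cells (0.63, limma adjusted p 0.0344). With the block 1 was higher and 1 lower with HPTE in FSH cells (Eif2ak3, 0.40, adjusted p 0.0436, and the GCN2 gene Eif2ak4, -0.40, 0.025), 1 was higher with FSH alone, and 1 was higher and 1 lower with cAMP alone. Eif2ak4 and the single marker genes of other cell types are named after their values were seen. Of 5 cytosolic elongation genes 0 were called by limma in the 5 main comparisons, and 0 had an unadjusted p under 0.05; Eef1a1, the elongation factor that carries charged transfer RNA to the ribosome, had log2 differences of -0.05, 0.05 and 0.09 with 10 µM HPTE. Of 9 other genes of mitochondrial translation, Gatc, a subunit of the amidotransferase that makes mitochondrial glutaminyl-tRNA, fell with HPTE in FSH cells (-0.46, limma adjusted p 0.0164) and the others were not called in these comparisons. These lists sit beside the synthetases as context and were chosen with the earlier results known.

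The level of single genes also depended on the array number. Against the mean of numbers 1 and 2, number 3 was higher in all 12 groups for Hars1, Iars1, Kars1, Mars1, Nars1 and Iars2, by 0.89, 0.71, 0.71, 0.67, 0.94 and 0.67 on the log2 scale on average. It was lower in all 12 for Cars1, Lars1, Qars1, Sars1, Vars1, Fars2, Rars2, Sars2, Wars2 and Yars2, by as much as 0.76 for Vars1. These offsets are as large as the HPTE differences of several of the same genes. They widen the groups when the number is not in the fit. For Tars1, Aars1, Rars1 and Farsb the average offset stayed between -0.08 and 0.31.

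For 14 of the 32 genes the array carried further probe sets, 18 in all. The sign of their difference matched that of the probe set used for 10 of 18 with FSH, 11 with cAMP, and 14, 15 and 14 with 10 µM HPTE in basal, FSH and cAMP cells. The other probe set of Wars1 had log2 differences of 0.56, 0.91 and 0.56 with 10 µM HPTE in basal, FSH and cAMP cells. None of these was called (SE 0.29 each, limma adjusted p 0.862, 0.0502 and 0.594). In FSH cells that of Iars1 had 1.28 (SE 0.47, limma adjusted p 0.103). For Cars1 another probe set was called with HPTE in FSH cells (0.57, SE 0.13, limma adjusted p 0.00581), where the one used was not (0.47, SE 0.26, 0.42). The other probe set of Tars2 had a difference of -0.05 (0.97) at a mean log2 level of 5.04.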

How the data were processed

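The 36 arrays (Affymetrix Rat Genome 230 2.0) measured RNA that, per the labels' protocols, was amplified and biotin-labelled from 40 ng per sample with the NuGEN Ovation system. Each deposited value is the intensity of 1 probe set in 1 array, not log-transformed; per the submitters' processing notes the authors used RMA, and the design text names ArrayAssist. The sources used here state no software version and do not say if the arrays were normalized together. Array medians were 65.8 to 73.7. Here log2 of each deposited intensity was taken, 57 control probe sets were left out and 31042 were tested without a filter on level. Exactly 1 gene symbol was paired with 20826 probe sets, several with 436 and none with 9780.

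limma 3.58.1 in R 4.3.3 (lmFit, contrasts.fit, eBayes) fitted 12 group means (residual df 24). P-values of each of 21 comparisons were adjusted by Benjamini-Hochberg over all probe sets at 0.05, two-sided. The labels give each array a number from 1 to 3. Deviations from the group means correlated above 0.1 in 189 of 198 pairs of equal number (median 0.51). This held for every pair within the main comparisons, so the number pairs the groups there. The median for unequal numbers was -0.423, which is partly built in, since the 3 deviations of a group sum to 0. The pairing comes from the data, not from a stated batch. The number of arrays limits precision. The script was tested on simulated data.

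The members and gene lists were chosen with earlier results of these data known. Every synthetase may be named; values in every array are given for those of largest difference in each main comparison (up to 6 cytosolic and 3 mitochondrial), and at most 6 genes per pathway list, by their difference at 10 µM HPTE in basal cells. Alternatives were the replicate block, quantile normalization, numbers 1 and 2 alone, leaving out number 2 of both stimulated groups without HPTE, leaving out probe sets below the first quartile of mean level, an offset of 16, the mean over all probe sets of a gene, and leaving out each array.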

Additional observations from a re-analysis of the deposited data

Results flagged for a closer look

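The effect of 10 µM HPTE on Tars2 mRNA, the mitochondrial threonine enzyme, differed between FSH and basal cells by a log2 difference of -0.73 in the test of the difference itself with the replicate block (limma adjusted p 0.023), while the fit without the block missed the threshold (0.0681). Without number 1 of the FSH group without HPTE it passed there too (-0.84, limma adjusted p 0.0455). Number 2 of that group, which goes against its label, had the highest Tars2 value of its group (8.81). With number 2 of both stimulated groups left out the difference was -0.54 (limma adjusted p 0.199), and -0.53 with the block as well (0.0889), so the call was lost in both.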

How the results depend on the processing

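No direction of any synthetase call turned under any alternative, and in the 5 main comparisons the counts called under quantile normalization, an offset of 16 and without probe sets below the first quartile stayed within 1.5 times. At 5 µM HPTE in FSH cells quantile normalization called 1 mitochondrial gene, Tars2, in place of 2, since Cars2 missed the threshold (adjusted p 0.066). The replicate block moved the counts to 5, 8, 2, 12 and 12 cytosolic genes (from 1, 1, 1, 3 and 3) with FSH, with cAMP, and with 10 µM HPTE in basal, FSH and cAMP cells; mitochondrial counts went to 2, 1 and 3 with FSH, with cAMP and with HPTE in FSH cells (from 1, 0 and 1). With numbers 1 and 2 alone, cytosolic counts were 2 with cAMP and 0, 5 and 1 with HPTE in basal, FSH and cAMP cells, and mitochondrial counts 0 with FSH and 0 with HPTE in FSH cells. Without number 2 of both stimulated groups, cytosolic counts were 2 with FSH, 3 with cAMP and 5 with HPTE in FSH cells, and mitochondrial counts 0 with FSH and 0 with HPTE in FSH cells. With the mean over all probe sets of a gene the mitochondrial count with FSH was 0. Chosen after seeing the data, leaving out number 2 of both groups with the block gave cytosolic counts of 5, 11, 3, 12 and 14, and mitochondrial counts of 1 with cAMP and 3 and 2 with HPTE in FSH and cAMP cells; numbers 1 and 2 alone with the block gave cytosolic counts of 4 with cAMP and 0, 6 and 1 with HPTE, and mitochondrial counts of 0 with FSH and 0 with HPTE in FSH cells. The cause of these changes was not tested. Leaving out 1 array at a time gave cytosolic counts of 0 to 1 with FSH, 1 to 3 with cAMP, 0 with HPTE in basal cells (each time), 1 to 4 in FSH and 1 to 4 in cAMP cells, and mitochondrial counts of 0 to 1 with FSH and 0 to 2 with HPTE in FSH cells. The numbers do not pair the groups in the interaction of FSH minus cAMP, where the block alone gave 1 mitochondrial call, Tars2 (adjusted p 0.0433). Probe sets near background limit what low genes such as Nars2 and Cars2 can show.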
